A study of Sus scrofa with 6 samples.

Results

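Porcine midbrain-like organoids were grown from an embryonic stem cell line derived from an in vitro fertilised pig embryo (IVF_1_ pESC_FIW) and were examined by single-cell RNA sequencing on days 11, 28 and 45 of culture (D11, D28 and D45). There were 2 libraries per day, A and B, and all 6 came from this 1 line, with no treatment arm. The culture changed between days: all organoids were patterned with SB431542, Noggin, SHH-C24II and CHIR99021 and then FGF8, and D11 organoids were in FGF8, BDNF and ascorbic acid. Later organoids (D28 and D45) had been embedded in Matrigel and kept on a shaker with BDNF, GDNF, ascorbic acid, db-cAMP and DAPT, an inhibitor of Notch signalling, so that time and medium cannot be told apart between D11 and the later days. The labels name the cells midbrain dopaminergic neurons, and the study describes A and B as biological duplicates. No source used here says at which step they were separated, so p-values measure the spread between these libraries only. The account concerns 8 of the 30477 genes in the tables, chosen by symbol as genes of oligodendrocytes and myelin: OLIG1, OLIG2, SOX10, PDGFRA, MBP, MAG, MOG and NEU4. All 8 were present in the tables. They were described in each library, and also within the 5839 of 102940 cells that held at least 1 SOX10 molecule, which were divided by whether they held 0 or at least 1 MAG molecule.

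Oligodendrocytes arise from precursor cells that divide and migrate in response to platelet-derived growth factor, which they sense through the receptor PDGFRA. OLIG1, OLIG2 and SOX10 are transcription factors of the lineage. As the cells mature, PDGFRA is shut off and proteins of the myelin sheath are made, among them myelin basic protein (MBP), which compacts the membrane, myelin-associated glycoprotein (MAG), which lies on the axonal face, and myelin oligodendrocyte glycoprotein (MOG), which lies on the outer face and appears late. NEU4 is a sialidase, an enzyme that removes sialic acid from glycoconjugates. SOX10 is also used by neural crest, Schwann cells and melanocytes, and PDGFRA by fibroblasts.

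The libraries held 106805311 to 180034791 unique molecular identifiers (UMIs, each marking 1 captured mRNA molecule), with a median of 2300.5 to 10757 UMIs per cell, lowest on D45. Levels are in CPM, which is UMIs of the gene per 1000000 UMIs counted in that library or cell class. Of the 8 genes, D28 A and D28 B differed most: OLIG1, OLIG2, MBP and MAG were at 1.34, 0.0655, 1.33 and 0.0936 CPM in D28 A, and at 18.8, 1.47, 25.5 and 2.07 CPM in D28 B. Results that rest on D28 are therefore also given without each of these libraries. Cells were assigned to marker gates, which required at least 3 detected markers of a list and the largest fraction of that list. The oligodendrocyte gate, which used none of the 8 genes, held 4, 4, 8, 118, 1054 and 987 cells in D11 A, D11 B, D28 A, D28 B, D45 A and D45 B.

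In the Sscrofa11.1 RefSeq annotation OLIG2 (ENSSSCG00000012039) spans chr13:196596838-196602197 and OLIG1 (ENSSSCG00000012040) spans chr13:196644065-196646406, so that 41867 bases separate them. SOX10 (ENSSSCG00000039315) is at chr5:9890439-9901746, PDGFRA (ENSSSCG00000008841) at chr8:40966568-41021440 and NEU4 (ENSSSCG00000037090) at chr15:140324087-140332226. MBP (ENSSSCG00000038767) is at chr1:147649516-147685289, MAG (ENSSSCG00000002887) at chr6:44794197-44809933 and MOG (ENSSSCG00000001248) at chr7:22595565-22606137. All 8 lie on the plus strand, and no other annotated gene overlaps any of them. The counts cover whole gene models, so exons and UTRs are not separated.

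MAG and MOG had the largest fitted rises from D28 to D45 among the 7 members with UMIs on both days, and the 250 bases before their annotated starts are shown for that reason. Capitals mark ACAAAG or ACAATG, core letters of SOX factor motifs, searched on both strands.

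MAG, chr6:44793947-44794196, plus strand: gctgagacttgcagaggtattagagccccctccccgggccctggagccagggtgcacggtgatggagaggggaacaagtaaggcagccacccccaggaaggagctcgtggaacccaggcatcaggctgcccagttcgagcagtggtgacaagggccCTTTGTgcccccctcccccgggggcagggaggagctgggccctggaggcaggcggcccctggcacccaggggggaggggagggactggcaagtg

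MOG, chr7:22595315-22595564, plus strand: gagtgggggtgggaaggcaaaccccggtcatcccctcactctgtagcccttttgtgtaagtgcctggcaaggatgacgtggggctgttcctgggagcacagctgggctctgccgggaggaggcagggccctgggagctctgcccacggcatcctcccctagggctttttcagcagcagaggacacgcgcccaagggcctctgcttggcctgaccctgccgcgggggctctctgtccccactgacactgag

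The MAG window held ACAAAG once, on the minus strand, and the MOG window held neither motif. Among the 8 genes, 3 windows (SOX10, MBP and MAG) held at least 1 of the motifs. The annotated start of MBP may lie within a longer transcript, so that its window may not be a promoter. Of 19569 protein-coding genes, 18.42% held at least 1 in a window of the same length, 12.12% for ACAAAG and 7.3% for ACAATG. These are matches of letters and not sites of binding.

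All 8 genes were at their highest on D45: both D45 libraries lay above every earlier one, as they did for 26.7% of the 22192 genes tested between days. The transcription factor OLIG1 was at 1.26 and 0.594 CPM in D11 A and B, at 1.34 and 18.8 CPM in D28 A and B, and at 80.9 and 69.2 CPM in D45 A and B. OLIG2 was at 0.126 and 0.0611 CPM on D11, at 0.0655 and 1.47 CPM on D28, and at 4.71 and 7.60 CPM on D45. For both genes D28 A lay within the range of D11 or close to it. SOX10 was at 1.81 and 1.88 CPM on D11, at 3.42 and 10.8 CPM on D28, and at 64.1 and 55.3 CPM on D45, a stepwise rise with no overlap between days, which 2880 of the 22192 genes showed.

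PDGFRA, the growth factor receptor, was at 0.297 and 0.378 CPM on D11, at 15.1 and 9.27 CPM on D28, and at 63.8 and 78.1 CPM on D45. It was the only member higher in D28 A than in D28 B. NEU4 was not counted in any D11 or D28 library, which allows a level of up to 0.0190, 0.0167, 0.0281 and 0.0238 CPM in D11 A, D11 B, D28 A and D28 B (3 UMIs). In D45 A and B it had 17 and 15 UMIs, 0.144 and 0.118 CPM. These floors and the intervals below cover counting error only.

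Among the myelin genes, MBP was at 0.594 and 0.467 CPM on D11, at 1.33 and 25.5 CPM on D28, and at 384 and 269 CPM on D45. MAG was at 0.0316 and 0.0333 CPM, from 5 and 6 UMIs, on D11. It was at 0.0936 and 2.07 CPM on D28 and at 89.2 and 66.0 CPM on D45. MOG was at 0.0822 and 0.0833 CPM on D11, at 0.328 and 0.50 CPM on D28, and at 25.7 and 20.01 CPM on D45. None of the 3 genes overlapped between days, a stepwise rise like that of the 2880 genes above, and MBP and MAG differed between the D28 libraries by far more than between the D45 libraries.

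**Figure D1:**
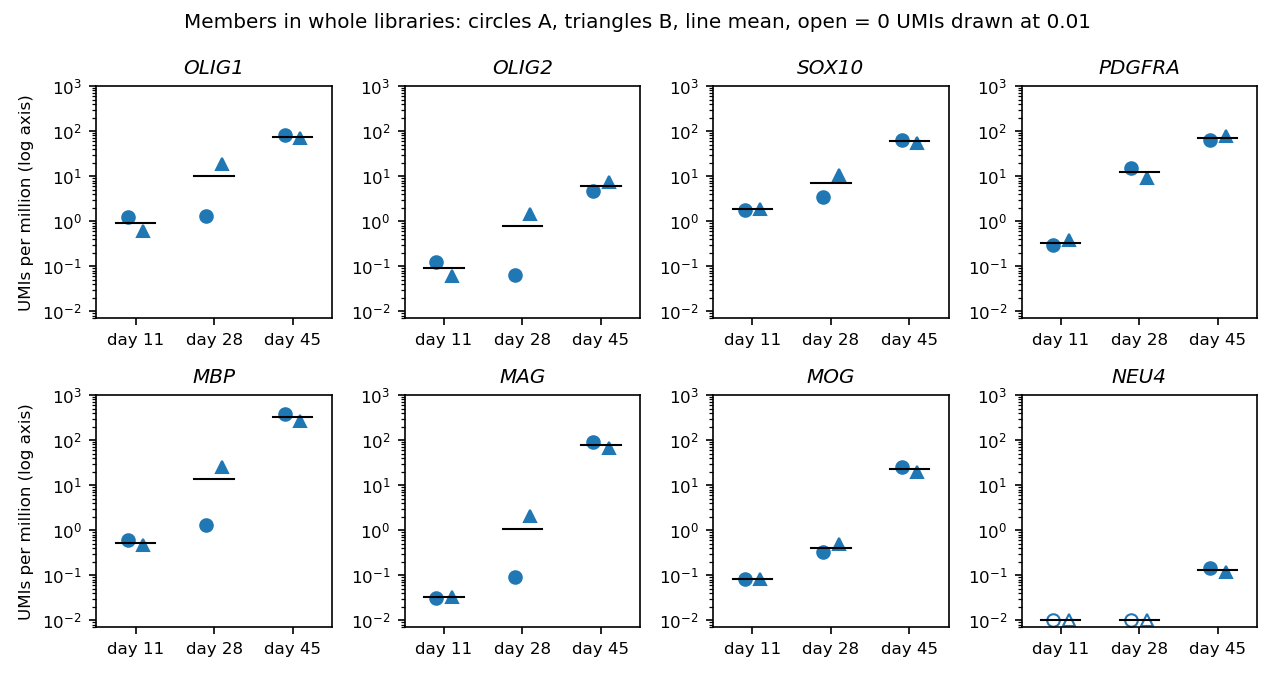
Level of each gene in the whole library, in CPM on a log axis, by day; circles are library A, triangles library B, lines the mean of 2 libraries, and open symbols stand for 0 UMIs drawn at 0.01. Both D45 libraries lie above all earlier ones for all 8 genes, as for 26.7% of all genes tested, and the D28 pair is far apart for OLIG1, OLIG2, MBP and MAG.

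Days were compared on sums over whole libraries, by the quasi-likelihood test of edgeR with Benjamini-Hochberg adjusted p-values over all 22192 genes tested. In such sums, fewer cells of a type and less RNA per cell cannot be told apart. From D11 to D45, 6 of 6 members other than MAG and NEU4 rose, against 17.3% of all genes higher and 17.4% lower. On the log2 scale the rise was 5.94 ± 1.12 (SE) for OLIG1, with an edgeR adjusted p of 0.00739, and 5.64 ± 1.20 for OLIG2 (0.0116). SOX10 rose by 4.60 ± 0.47 (edgeR adjusted p = 0.000759) and PDGFRA by 7.30 ± 0.43 (0.000188). MBP rose by 8.85 ± 1.35 (edgeR adjusted p = 0.00338) and MOG by 7.68 ± 0.31 (0.000105). NEU4 was at least 14.7-fold higher on D45 against a floor of 3 UMIs over both D11 libraries. It passed the count filter through D45 alone, and MAG, with 5 and 6 UMIs on D11, through the later days, so no p-value against D11 is given for either. OLIG2 no longer passed without D11 A, D11 B or D45 B, which left 5 of 6, where 7.17%, 6.85% and 9.25% of all genes were higher. In the same comparison 6 of 7 oligodendrocyte markers outside the 8 genes rose, as did 5 of 8 astrocyte, 5 of 8 fibroblast and 3 of 8 neuron markers, while 8 of 8 floor plate and 7 of 7 mitotic markers, 1 astrocyte and 1 neuron marker fell. The part of these shifts in cell makeup in the members' values was not tested.

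Between D11 and D28, 4 of 6 members other than MAG and NEU4 rose and none fell, against 12.5% of genes higher and 10.6% lower. PDGFRA rose most clearly, by 4.94 ± 0.39 on the log2 scale (edgeR adjusted p = 0.000851), followed by MOG, by 2.04 ± 0.29 (0.00423). SOX10 rose by 1.63 ± 0.42 (edgeR adjusted p = 0.0324) and MBP by 4.30 ± 1.13 (0.0348). In D28 A only 2.86% of MOG and 2.82% of MBP UMIs lay in cells with a SOX10 UMI, and 54.3% and 66.9% in the neuron gate. In D28 B, cells with a SOX10 UMI held 52.4% of MOG and 89.6% of MBP UMIs. Outside such cells MOG was at 0.0776 and 0.0852 CPM in D11 A and B, and at 0.330 and 0.256 CPM in D28 A and B. The rise of MOG was thus not confined to cells with SOX10. The OLIG1 difference of 3.09 ± 0.99 (edgeR adjusted p = 0.0634) and the OLIG2 difference of 2.69 ± 1.12 (0.125) did not pass, and NEU4 had no UMI on either day. The count was 1 without D11 A and 2 without D11 B, where 2.65% and 3.01% of all genes were higher. It was 2 without either D45 library, which enter the common estimate of spread, with 7.66% of all genes higher without D45 A and 7.76% without D45 B. Without D28 A it was 6, with 16.5% of all genes higher, and without D28 B it was 4, with 23.6% higher, in which case OLIG2 turned to -0.63. Of the cell type markers, 4 of 7 oligodendrocyte, 5 of 8 astrocyte, 5 of 8 fibroblast and 3 of 8 neuron markers rose, and 6 of 7 mitotic, 4 of 8 floor plate, 1 astrocyte and 1 neuron marker fell.

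From D28 to D45, 5 of 7 members with UMIs on both days rose and none fell, against 4.47% of genes higher and 4.93% lower. MOG rose by 5.64 ± 0.28 (edgeR adjusted p = 0.00196), MAG by 6.08 ± 1.03 (0.0208) and MBP by 4.56 ± 1.10 (0.0479). SOX10 rose by 2.97 ± 0.43 (edgeR adjusted p = 0.0137) and PDGFRA by 2.37 ± 0.33 (0.0129). NEU4 was at least 10.1-fold higher against the floor over both D28 libraries, again with no p-value. OLIG1, at 2.85 ± 0.96 (edgeR adjusted p = 0.0990), and OLIG2, at 2.95 ± 1.02 (0.105), did not pass. All 7 passed without D28 A and also without D28 B, where 9.96% and 20.5% of all genes were higher. Without either D11 library 4 passed, beside 1.38% of all genes higher in each case. Without D45 A 0 members passed, as did 0 of all genes. At an unadjusted p under 0.05 there were then 6 of 7, beside 8.23% of all genes higher at that p. Without D45 B 1 passed, beside 0.127% of all genes higher. The lone D45 library was assumed to vary like the others. Of the cell type markers, 4 of 7 oligodendrocyte and 4 of 8 astrocyte markers rose and 7 of 8 floor plate markers fell.

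The genes differed in the cells that held them. On D45, MBP, MAG and MOG lay largely in cells that passed the oligodendrocyte gate, with 90.5%, 92.8% and 91.6% of their UMIs there in D45 A and 88.8%, 87.6% and 89.3% in D45 B. MBP was at 3593 and 2974 CPM in that gate and at 14.1 and 19.9 CPM in the astrocyte gate. OLIG1 and OLIG2 were spread more widely: the oligodendrocyte gate held 27.7% and 34.2% of OLIG1 UMIs and 33.3% and 39.4% of OLIG2 UMIs in D45 A and B. The neuron gate held 44.8% and 32.5% of OLIG1 and 39.8% and 26.5% of OLIG2, so it was not free of cells or RNA with these genes.

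OLIG1 was also high in mitotic cells, the gate set by genes of cell division. It was at 272 and 240 CPM there in D45 A and B, beside 231 and 295 CPM in the oligodendrocyte gate and 69.7 and 54.4 CPM in the neuron gate. In D28 B it was at 157 CPM in the mitotic and 244 CPM in the oligodendrocyte gate. PDGFRA followed another distribution, being at 449 and 320 CPM in fibroblast-gated cells of D45 A and B and at 83.0 and 81.5 CPM in oligodendrocyte-gated cells. The fibroblast gate held 44.8% and 65.2% of PDGFRA UMIs in D45 A and B and 75.3% in D28 A. In D28 B it held 17.4%, less than the mitotic gate (32.9%) and the neuron gate (21.8%). Fibroblast-gated cells numbered 9, 21, 1341, 148, 602 and 1636 in the 6 libraries in order of day and letter. The summed level of the 8 fibroblast markers was 70.7 to 70.8 CPM on D11, 432 to 1395 CPM on D28 and 953 to 2593 CPM on D45. Their part in the change of PDGFRA between days was not tested.

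**Figure D2:**
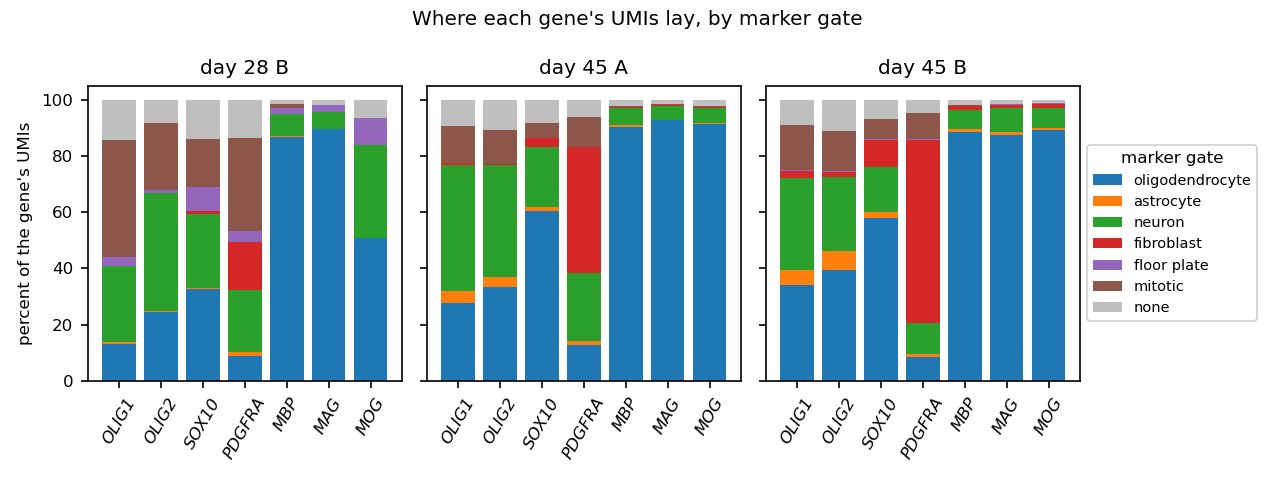
Share of each gene's UMIs, in percent, by marker gate in D28 B, D45 A and D45 B; each stacked bar is 1 gene and sums to 100. Blue, the oligodendrocyte gate, fills most of the MBP and MAG bars in all 3 libraries, while red, the fibroblast gate, holds 44.8% and 65.2% of PDGFRA in D45 A and B.

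SOX10-positive cells made up 1.86% (95% exact binomial interval 1.65 to 2.09) of D11 A and 1.48% (1.33 to 1.66) of D11 B. They made up 2.09% (1.86 to 2.34) of D28 A, 5.20% (4.83 to 5.58) of D28 B, 10.4% (10.0 to 10.9) of D45 A and 11.6% (11.11 to 12.04) of D45 B. The neuron gate, whose markers are of cells that should lack SOX10, had a SOX10 UMI in 2.47%, 2.35%, 2.43%, 4.19%, 7.66% and 7.63% of its cells in the same order. On D45 this gate also held OLIG1 and OLIG2 UMIs, as given above, so its share there is not a background free of the lineage. The SOX10-positive share was below that of the neuron gate in both D11 libraries and in D28 A. Over these whole libraries it is not read above background. In D28 A a SOX10 UMI was in 6.03% of mitotic and 3.13% of fibroblast gate cells, at a median depth of 15067.5 and 11044 UMIs. After thinning to 1000 UMIs it was in 0.612% and 0.334% of them against 0.492% of neuron gate cells. Median depth was 12899, 12424, 11856, 10945, 11203.5 and 10959 UMIs in SOX10-positive cells and 11241, 10492.5, 5989, 7712, 6452 and 6256 UMIs in the neuron gate. When each cell was thinned to 1000 UMIs, the share was 4.34% and 4.36% in D45 A and B. Beside it, SOX10 was in 1.83% and 2.09% of neuron gate cells and in 30.5% and 30.7% of oligodendrocyte-gated cells. Thinning left out 975, 5264, 4373, 1870, 6623 and 4852 cells. Before thinning, 79.8% and 84.4% of oligodendrocyte-gated cells held SOX10 in D45 A and B.

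On D11 the SOX10-positive cells held few UMIs of the other members, 4 and 5 of OLIG1 in D11 A and B and at most 2 of any other. OLIG1 was at 1.10 and 1.27 CPM in them and at 1.26 and 0.579 CPM in SOX10-negative cells. In D28 A, 17 OLIG1 UMIs came from 1 of the 298 SOX10-positive cells without MAG, and MBP was at 1.04 CPM in them and 1.34 CPM in SOX10-negative cells. The cadherin CDH19, a gene of neural crest and Schwann cell precursors, was at 40.2 CPM in these cells against 0.700 in SOX10-negative cells. This level was not particular to D28 A, since SOX10-positive cells without MAG had CDH19 at 28.1, 7.89, 9.58, 35.1 and 46.3 CPM in D11 A, D11 B, D28 B, D45 A and D45 B. On D45 the SOX10-positive cells, with 20.5% and 19.2% of all UMIs in A and B, held 80.4% and 81.8% of OLIG1 UMIs, 79.4% and 79.6% of OLIG2, 91.3% and 90.5% of MBP, and 91.0% and 90.6% of MOG. They held 48.0% and 28.9% of PDGFRA.

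A MAG UMI was seen in 0 of 274 and 0 of 320 SOX10-positive cells of D11 A and B, which allows up to 1.09% and 0.938% of cells with a UMI and sets no limit on cells that express MAG weakly. It was seen in 1 of 299 such cells in D28 A, in 7.49% (5.68 to 9.66) of 721 in D28 B, in 28.8% (26.9 to 30.8) of 2094 in D45 A and in 26.5% (24.6 to 28.4) of 2131 in D45 B. In the neuron gate a MAG UMI was seen in 0.194%, 2.39% and 2.41% of cells in D28 B, D45 A and D45 B. After thinning the share among SOX10-positive cells was 5.07%, 17.8% and 19.8%. The median depth of SOX10-positive cells with MAG was 10432 UMIs against 11185 without MAG in D28 B, 13587 against 10050 in D45 A and 11795 against 10561 in D45 B.

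Within SOX10-positive cells the members fell into opposite groups. Sums of cells with and without MAG were compared within D28 B, D45 A and D45 B, the libraries with at least 20 cells of each class, with the library as a term. SOX10 and MAG chose the cells and were not tested, and NEU4 was below the count filter. Of the remaining 5 genes, 2 were higher and 2 lower in MAG-positive cells, against 17.7% of 14915 genes higher and 23.3% lower.

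MBP was at 97.8, 164 and 134 CPM in cells without MAG and at 3496, 4635 and 4132 CPM in cells with MAG (D28 B, D45 A and D45 B). That is a rise of 5.16 ± 0.09 on the log2 scale (edgeR adjusted p = 1.4e-05). MOG was at 0.630, 3.46 and 2.57 CPM without MAG and at 46.7, 324 and 327 CPM with MAG, a rise of 6.92 ± 0.17 (edgeR adjusted p = 2.8e-05). The classes did not overlap for either gene, and 12.7% of the 14915 genes were likewise higher with MAG with no overlap. MBP was detected in 92.6%, 96.0% and 91.8% of MAG-positive cells, whereas MOG was detected in 24.1% of them in D28 B and in 68.5% and 65.1% in D45 A and B.

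OLIG1 was at 219, 451 and 383 CPM in cells without MAG and at 81.6, 62.9 and 69.5 CPM in cells with MAG, lower by a log2 difference of -2.15 ± 0.23 (edgeR adjusted p = 0.00150). PDGFRA was at 84.7, 218 and 153 CPM without MAG and at 31.7, 20.5 and 26.1 CPM with MAG, a difference of -2.54 ± 0.29 (edgeR adjusted p = 0.00181). For these genes too the classes did not overlap, and 34.7% of the 14915 genes were likewise lower with MAG with no overlap. OLIG2 was at 10.6, 21.9 and 34.3 CPM without MAG and at 25.0, 11.3 and 24.0 CPM with MAG, and its difference of -0.26 ± 0.30 did not pass (edgeR adjusted p = 0.522). It passed, as lower, with the D45 libraries alone (-0.49), with at least 2 SOX10 UMIs required (-0.98) and with cells of other gates left out (-0.76). In these fits 52.3%, 40.1% and 37.8% of all genes passed in either direction. NEU4 had 10 and 8 UMIs in cells without MAG and 1 and 2 in cells with MAG in D45 A and B.

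Of the cells without MAG, 41.5%, 40.9% and 32.2% passed the neuron gate in D28 B, D45 A and D45 B, against 5.56%, 6.29% and 6.91% of those with MAG. Since a cell entered at most a single gate, the difference in these shares is partly set by the gating. When cells of other gates were left out, the log2 differences were 3.61 for MBP, 5.90 for MOG, -2.88 for OLIG1 and -3.37 for PDGFRA. All 4 passed, as did 37.8% of all genes in either direction, 17.3% of them all as higher. In cells thinned to 1000 UMIs, D28 B had too few MAG-positive cells to enter. MBP and MOG passed again there, at 2.73 and 3.94, beside 9.55% of all genes higher. PDGFRA then had 142 UMIs without MAG and 0 with MAG over both D45 libraries, at least 10.9-fold lower against a floor of 3 UMIs over both. OLIG1 had 190 and 182 UMIs without MAG and 0 and 5 with MAG in D45 A and B. Both entered this fit through the cells without MAG, so no test is given for them.

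**Figure D3:**
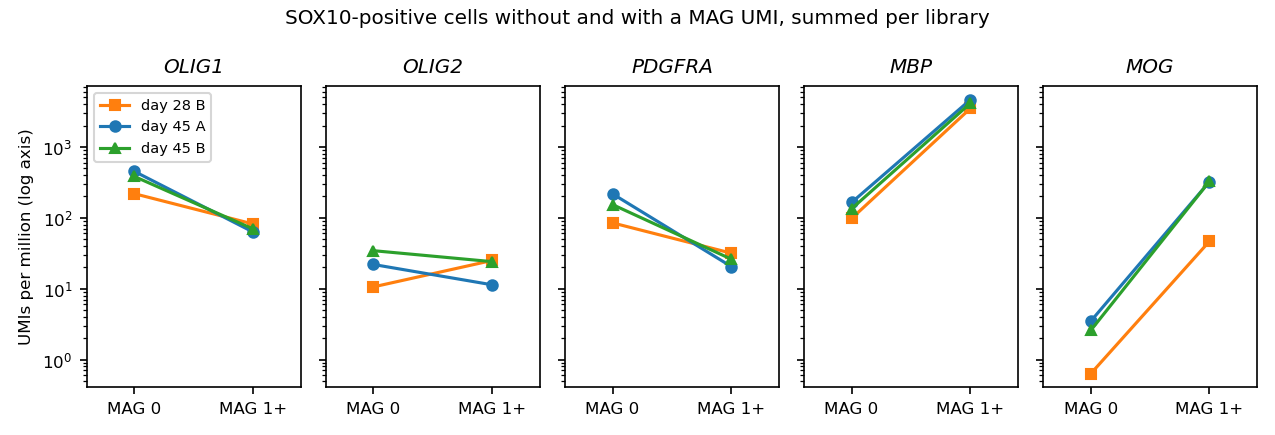
Level, in CPM on a log axis, of 5 genes in SOX10-positive cells without (MAG 0) and with (MAG 1+) a MAG UMI; each line joins the 2 sums of 1 library. OLIG1 and PDGFRA fall and MBP and MOG rise in all 3 libraries, while OLIG2 rises in D28 B and falls in both D45 libraries.

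Along the number of MAG UMIs in a cell the D45 libraries showed the same order, given here without a test. In D45 A the SOX10-positive cells with 0, 1, 2 to 4, 5 to 9 and at least 10 MAG UMIs numbered 1490, 104, 90, 112 and 298, and in D45 B 1567, 109, 120, 106 and 229. OLIG1 was at 451, 274, 89.1, 22.9 and 15.7 CPM along these bins in D45 A and at 383, 181, 90.2, 52.2 and 14.8 CPM in D45 B. PDGFRA was at 218, 116, 14.2, 6.06 and 2.15 CPM in D45 A and at 153, 77.7, 14.4, 25.7 and 6.57 CPM in D45 B. Thus OLIG1 stepped down in each bin of both libraries and PDGFRA in each bin of D45 A, with a reversal between the middle bins of D45 B. D28 B, with 4 to 21 cells in each bin that contains MAG, kept the order only in part. OLIG1 stepped down along all its bins, but PDGFRA was at 84.7 CPM with 0 and 107 CPM with 1 MAG UMI. MBP went from 4737 to 4327 CPM between its last bins, and MOG from 48.5 to 39.8 CPM between its middle bins.

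MBP was at 164, 1242, 3263, 4392 and 5892 CPM in D45 A and at 134, 1123, 3249.5, 4425 and 5808 CPM in D45 B. MOG was at 3.46, 26.8, 71.1, 124 and 521 CPM in D45 A and at 2.57, 20.8, 91.8, 142 and 639 CPM in D45 B. Between the lowest and highest bins that contain MAG, MOG therefore changed by a larger ratio than MBP. OLIG2 was at 21.9, 21.0, 9.48, 10.8 and 9.45 CPM in D45 A and at 34.3, 27.7, 31.9, 26.5 and 18.1 CPM in D45 B.

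**Figure D4:**
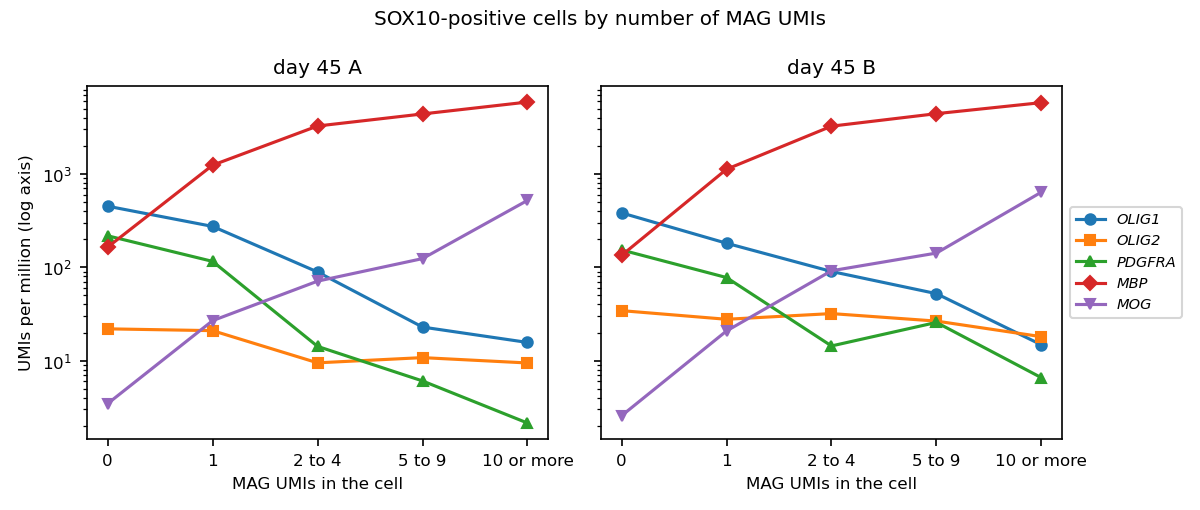
Level, in CPM on a log axis, of 5 genes in SOX10-positive cells of D45 A and D45 B grouped by their number of MAG UMIs; each point is the sum over the cells of a bin. From 0 to at least 10 MAG UMIs OLIG1 goes from 451 to 15.7 CPM and MOG from 3.46 to 521 CPM in D45 A, with like ends in D45 B.

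PDGFRA and MAG were seldom seen together. Both were detected in 6, 44 and 45 SOX10-positive cells of D28 B, D45 A and D45 B, while PDGFRA without MAG was detected in 172, 526 and 583 cells and MAG without PDGFRA in 48, 560 and 519. Neither was detected in 495, 964 and 984 cells. Cells with both were the deepest class on D45, with a median of 16619 and 14652 UMIs in D45 A and B, against 13465 and 11571 for MAG alone.

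The genes of lists chosen for the lineage moved between the MAG classes as follows, all by edgeR's test as above. Over all genes 17.7% were higher and 23.3% lower. Of 18 precursor genes tested, 5 were higher and 10 lower in MAG-positive cells (median log2 difference -0.97, against -0.04 over all genes). Of the 4 with the highest levels, the transmembrane protein LHFPL3 fell by 1.13 and the metalloproteinase MMP16 by 1.37, while the transcription factor SOX6 rose by 1.32 and the matrix glycoprotein tenascin-R (TNR) by 3.06. SOX6 was at 956, 1227 and 1240 CPM without MAG and at 2924, 2316 and 2264 CPM with MAG. Of 18 genes of committed and newly formed oligodendrocytes, 14 were higher and 1 lower (median 2.16). BCAS1 rose by 3.17, the adhesion protein neurofascin (NFASC) by 3.85, the kinase FYN by 2.00 and the transcription factor TCF7L2 by 2.31. GPR17, a receptor of newly committed cells, differed by 0.79 and did not pass (edgeR adjusted p = 0.140).

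Of 31 other myelin genes, 23 were higher and 4 lower (median 2.34). The 23 include TMEM125 and HAPLN2, which passed the count filter through the MAG-positive class. Among those at the highest levels, claudin-11 (CLDN11) rose by 6.31, UGT8, which makes galactocerebroside, by 4.16 and the phosphodiesterase CNP by 4.02. CLDN11 was at 26.1, 38.7 and 25.8 CPM without MAG and at 1658, 2485 and 2099 CPM with MAG, higher in all 3 libraries. The 4 that fell were the heat shock protein CRYAB (-1.45), CNTN2 (-1.74), TSPAN2 (-1.62) and the cytokinesis protein ANLN (-0.80). These 4 are named after their values were seen.

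A list of 15 ligands, receptors and regulators of signalling included the transcriptional regulators HES5, ID2 and ID4. Of these 15, 5 were higher and 6 lower (median -0.15), beside 17.7% and 23.3% of all genes. HES5, ID2 and ID4 were all among the lower. The fibroblast growth factor receptor FGFR2 rose by 3.71 and the ligand PDGFC by 2.84, whereas the neuregulin receptor ERBB4 fell by 0.86. The identifier named ERBB3 was at 888 to 1977 CPM in both classes of all 3 libraries and differed by -0.15, which did not pass (edgeR adjusted p = 0.179). Whether it counts reads of that gene alone was not tested. Of 11 crest, Schwann cell and melanocyte genes tested, 4 were higher and 4 lower (median -1.25), beside the same 17.7% and 23.3%. DCT, a melanin enzyme, rose by 4.91, from 8.20, 18.3 and 17.7 CPM to 91.6, 645 and 559 CPM. The pigment cell factor MITF rose by 1.65 and CDH19 fell by 3.34.

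The largest rises among genes past the threshold and changed alike in all 3 libraries were those of TMEM125, MOG, HOXD1, TMEM61, HAPLN2, CLDN11, C10orf90, FRMD1, COL11A2 and SGK2. The least of these was 5.46 for SGK2. TMEM125 was at 0, 0.315 and 0.057 CPM without MAG and at 9.998, 43.7 and 46.2 CPM with MAG, and its fold is not given because so few UMIs lie in the first class. HAPLN2, a link protein of the nodes of Ranvier, went from 1.39, 0.63 and 0.514 CPM to 91.6, 40.5 and 46.3 CPM. The homeobox gene HOXD1 went from 0.126, 0.315 and 0.286 CPM to 10.0, 33.7 and 28.8 CPM. Like TMEM125, the genes HOXD1, TMEM61, HAPLN2, FRMD1 and COL11A2 had few UMIs without MAG. They passed the count filter through the MAG-positive class, so no fold is given for them. The largest falls were those of CENPF, UBE2C, NDC80, ASPM, TOP2A, PIMREG, GXYLT2, CDH19, TSPAN11 and KIF2C, between 3.26 for KIF2C and 3.79 for CENPF. Among them CENPF, UBE2C, NDC80, ASPM, TOP2A and KIF2C act in mitosis. CENPF was at 210, 208 and 223 CPM without MAG and at 6.67, 13.6 and 14.9 CPM with MAG.

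Cells that passed the mitotic gate made up 13.5%, 7.32% and 9.57% of SOX10-positive cells without MAG in D28 B, D45 A and D45 B, and 0 of 54, 0.662% and 0.709% of those with MAG. A cell entered at most a single gate, and on D45 a mean of 88.6% of those with MAG were in the oligodendrocyte gate. The difference in these shares is therefore partly set by the gating. Beside 23.3% of all genes lower, all 7 mitotic markers tested were lower in MAG-positive cells, as were 7 of 7 astrocyte, 6 of 8 fibroblast, 6 of 8 floor plate and 6 of 8 neuron markers. Of the neuron markers 1 was higher, and of 7 oligodendrocyte markers outside the 8 genes 6 were higher and none lower. Of 2 immune genes tested 1 was lower, and of 5 endothelial genes 1 was higher and 3 lower, beside 17.7% and 23.3% of all genes. The summed level of the fibroblast markers was 334, 547 and 1546 CPM without MAG and 55.0, 135 and 509 CPM with MAG in the same order. The part of other cell types in the MAG comparison was not tested beyond the alternative that left out cells of other gates.

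Cells with SOX10 and without MAG were also compared between D28 and D45, in 298, 667, 1490 and 1567 cells of D28 A, D28 B, D45 A and D45 B. The class was not made of the same cells on both days: the floor plate gate held 16.4%, 16.6%, 0.872% and 0.957% of it in this order, and the oligodendrocyte gate 2.01%, 8.55%, 19.9% and 21.8%. Of 8 floor plate markers 3 were lower on D45 by edgeR, and the part of this makeup in the members' values was not tested. OLIG1 was at 4.40, 219, 451 and 383 CPM, PDGFRA at 15.5, 84.7, 218 and 153 CPM, and MBP at 1.04, 97.8, 164 and 134 CPM. D28 A was the lowest for each of these. By edgeR, 0 of 5 members passed, against 0.0901% of 15536 genes higher and 0.206% lower. At an unadjusted p under 0.05 there were 3 (OLIG2, PDGFRA and MOG), beside 7.72% of all genes higher at that p, and DESeq2 called 1, beside 1.78% of all genes higher. The edgeR differences ranged from 1.64 ± 1.27 for MBP (adjusted p = 0.537) to 2.60 ± 0.56 for MOG (0.158). Without D28 B, 5 passed, beside 15.3% of all genes higher, and without D28 A 2 (OLIG1 and PDGFRA), beside 3.27%. Without D45 A or D45 B 1 passed each, beside 0.624% and 0.770% of all genes higher.

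The profile of each gene over 31 sums of library and gate was compared with that of 10587 genes by Pearson's r of log2(CPM + 1), given as a description over sums that share libraries. OLIG1 was most like GPR17 (0.92), SCRG1 (0.92) and ATP10B (0.92), and SOX10 most like CMTM5 (0.98), ATP10B (0.97) and GPR17 (0.96). PDGFRA was most like ETS1 (0.93), APOD (0.91) and AFAP1L2 (0.89). MBP was most like MAG (0.97), UGT8 (0.96) and MOGAT1 (0.96), MAG most like MOG (0.97), MBP (0.97) and ZNF488 (0.95), and MOG most like MAG (0.97), SGK2 (0.97) and ZNF488 (0.97). GPR17 and UGT8 are themselves markers of the oligodendrocyte gate, so their likeness is partly set by the gating. OLIG2 and NEU4 were below the level set for this measure.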

How the data were processed

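Per the labels and file headers, the authors aligned GEM-X 3' v4 libraries to Sscrofa11.1 with Cell Ranger 8.0.1 and deposited raw UMI counts per gene and barcode. The submitters' processing notes also name Seurat 4.3.0. Cells with 200 to 7000 detected genes and at most 10% of UMIs from 37 mitochondrial genes were kept here, 102940 of 104820 barcodes, beside 103310 in the design text. Of 30477 genes, 16266 had a symbol in the tables and 844 took one from the reference table. Pairs of libraries shared 54 to 111 barcode sequences, and doublets were not called. Leaving out cells of other gates does not replace such a call, since doublets in the oligodendrocyte gate or in no gate stay in. It also drops cells of the mitotic gate, of which a mean of 34.7% held SOX10 on D45.

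Counts were summed per library, or per library and class of at least 20 cells, and tested with edgeR 4.0.16 (TMM, quasi-likelihood, Benjamini-Hochberg, threshold 0.05), in all 6 libraries for days. DESeq2 1.42.0 was an alternative. The fits were tested on simulated data. Replicate libraries differed beyond sampling noise and were counted separately. The members, lists and tests were chosen with earlier results of these data known. Named genes were the 8 members, up to 4 genes per lineage list by mean CPM, the 10 largest rises and falls of the MAG comparison with at least 20 CPM in the higher class, and the 3 most alike per member; some of these are not reported here. Sequences came from RefSeq. Software was R 4.3.3 and Python 3.11.15.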

Additional observations from a re-analysis of the deposited data

Results flagged for a closer look

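OLIG2 moved in opposite directions between days in the MAG comparison. It was higher with MAG in the only D28 library tested, at 25.0 against 10.6 CPM, and lower with MAG in both D45 libraries, at 11.3 against 21.9 and 24.0 against 34.3 CPM. The D28 effect minus the D45 effect was 1.82 ± 0.45 on the log2 scale, with an adjusted p of 0.135 by edgeR's quasi-likelihood test over 16001 genes, of which 227 passed, so the difference did not pass. The D28 side of it is 1 library, so the error and p rest on the spread between the 2 D45 libraries alone, here and in the next sentence. The same difference was 1.11 ± 0.25 for OLIG1 (adjusted p = 0.107 by edgeR) and 1.44 ± 0.60 for PDGFRA (0.328), although both were lower with MAG in all 3 libraries. The D28 value with MAG rests on 15 UMIs in 54 cells.

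Cells with a MAG UMI and no SOX10 UMI lay outside the classes compared in the report. There were 415 in D45 A and 395 in D45 B, against 5 and 6 in D11 A and B and 7 and 22 in D28 A and B. Of the D45 cells, 337 in each library held only 1 MAG UMI, and 25.1% and 15.9% passed the oligodendrocyte gate. Their MBP level was 562 and 299 CPM, and their median depth was 4913 and 8990 UMIs per cell.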

How the results depend on the processing

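NEU4 is left out of the counts between days, and MAG out of those against D11, as above. The members passing were then 6 of 6 for D45 against D11, 4 of 6 for D28 against D11 and 5 of 7 for D45 against D28. D45 against D11 and the MAG comparison kept their counts within 1.5 times under every alternative run. In the MAG comparison 4 to 5 of 5 members passed with a library left out, beside 12.2% to 52.3% of all genes called in either direction. With a library left out, and with NEU4 and MAG counted where tested, the count was 1 to 7 for D28 against D11. Beside it, 2.65% to 23.6% of all genes were higher. For D45 against D28 it was 0 to 8, beside 0% to 20.5% of all genes higher. For D45 against D28 in SOX10-positive cells without MAG it was 1 to 5, beside 0.624% to 15.3%. Each such fit has 1 day with 1 library. With the replicate letter as a block, and MAG counted, 2 passed for D28 against D11, beside 8.39% of all genes higher. In the cells without MAG 5 passed with this block, beside 2.7% of all genes higher, and DESeq2 gave 1, beside 1.78%. The letters were not taken to pair the libraries, since the deviations of same-lettered libraries correlated at -0.30, 0.04 and -0.18. In the cells without MAG the correlation was -0.24, and a crossed block, chosen after seeing the data, also gave 5, beside 4.22% of all genes higher. With NEU4 and MAG counted where tested, no other count moved by over 1.5 times under a block or without it. OLIG2 reversed to -0.63 for D28 against D11 without D28 B, over a range of -0.63 to 3.61 with a library left out, and to 0.23 and 0.01 in the MAG comparison without D45 A and D45 B, over a range of -0.49 to 0.23. The share of SOX10-positive cells, 1.67%, 3.65% and 11.0% on D11, D28 and D45, was 0.0697%, 0.927% and 6.49% when 2 UMIs were required, and 0.259%, 0.762% and 4.35% after thinning. Over cells in no other gate it was 0.797% on D11 and 13.2% on D45. The share of these with MAG, 3.91% on D28 and 27.7% on D45, was 11.3% and 39.5% from 2 SOX10 UMIs, 11.2% and 46.7% in no other gate, and 18.8% on D45 after thinning. The causes were not tested. Few UMIs limit NEU4, OLIG2, and MAG and MOG on D11.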

Other observations

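Over whole libraries the lineage lists also changed between D11 and D45 by edgeR's quasi-likelihood test. Of 18 precursor genes 8 rose and 2 fell, of 18 committed genes 12 rose and 1 fell, and of 31 myelin genes 18 rose and 3 fell, beside 17.3% of all genes higher and 17.4% lower. The 18 myelin genes that rose include KLK6, which like NEU4 passed the count filter through D45 alone. Genes of this kind were not taken out of the list counts. Of the 15 genes of the signalling list, 9 rose and 4 fell. Among its transcriptional regulators HES5 fell by 2.07 on the log2 scale, while ID2 rose by 0.99 and ID4 by 1.11. Of 14 crest genes 10 rose and 1 fell. BCAS1 rose by 6.69 ± 0.99 on the log2 scale, from 1.87 and 2.24 CPM to 315 and 254 CPM. DCT rose by 4.19 ± 0.23, from 2.25 and 1.94 CPM to 59.0 and 42.8 CPM. The junction protein JAM3 was among the myelin genes that fell, from 128 and 128 CPM to 74.3 and 86.0 CPM.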
